A study of Arabidopsis thaliana with 4 samples.

Results

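The chloroplast of Arabidopsis thaliana carries a small genome of its own, and 67 of the 30361 gene models on the array belong to it. They were chosen by their locus identifiers, which begin with ATC and lie on chromosome C of the deposited annotation, and all 67 entered the fits reported below. The models cover photosystem I (5 models, with 2 assembly factors), photosystem II (11), the cytochrome b6f complex and cytochrome c maturation (4), ATP synthase (6), the large subunit of Rubisco (1), the NDH complex (11), ribosomal proteins (17), RNA polymerase (4) and other proteins (8). No transfer or ribosomal RNA gene was among them.

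Seedlings of the accession Landsberg erecta (Ler) were grown on MS medium plates and collected on day 7. Wild-type plants, labelled with normal flowering time, were compared with TEKi plants, labelled late flowering, which were T3 plants carrying amiTEK, an artificial microRNA against the AT-hook protein gene TEK. Each group had 2 single-colour Cy3 arrays, from separate cultures. The sources used here do not give the number of TEKi lines, the promoter of the microRNA or the priming of the labelling reaction.

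Chloroplast genes are read by a bacterial-type RNA polymerase, whose core subunits are encoded in the chloroplast (rpoA, rpoB, rpoC1, rpoC2) and whose sigma factors come from the nucleus, and by phage-type polymerases encoded in the nucleus. Most chloroplast genes lie in operons, and their transcripts are cut, edited and spliced by nuclear-encoded proteins. The photosynthetic complexes are mosaics, with core subunits made in the chloroplast and further subunits imported from the cytosol. Most chloroplast mRNAs lack the stable poly(A) tail of nuclear mRNAs, so their yield can depend on how labelling is primed; this was not tested.

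The deposited files did not place the same arrays in the groups. Both sources gave the same array for wild type 1 and for TEKi 2. The remaining pair was exchanged: the series value table lists as TEKi 1 the intensities filed as wild type 2, and as wild type 2 those filed as TEKi 1, with all 30361 models identical. Differences are therefore given with the array-file labels, taken as the main ones, and with the value-table labels. TEK itself had intensities of 13406, 14118, 9864 and 13770 on wild type 1, the array filed as wild type 2, the array filed as TEKi 1 and TEKi 2. All sets of 4 intensities below follow this order of arrays. TEK did not settle the assignment. With the array-file labels its groups overlapped (log2 difference, TEKi minus wild type, -0.24, limma adjusted p = 1). With the value-table labels both TEKi arrays lay above both wild-type arrays (0.28, limma adjusted p = 0.694). The image names carry 1 slide number for all 4 arrays, with position codes that run in the same order, so position on the slide and group as filed cannot be told apart.

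All 67 chloroplast models were bright. Their median intensity was 54750, 53561, 60018 and 61295 on the 4 arrays, against 5689, 5648, 5820 and 5790 for all 30352 genes tested. By mean level they ranked between the 65.9th and the 99.5th percentile of the genes tested. The highest deposited value was 64046.8, a ceiling that 23 chloroplast models reached on at least 1 array and 0 on all 4. It was reached by 9 and 7 models on the arrays filed as wild type and by 14 on each array filed as TEKi, so a difference that involves it is compressed. Plateaus also occurred below it, since psbD read 63356.6 on 3 arrays and psbC read 63442.1 on 2. Intensities of different genes depend on their probes as well as on their transcripts and are not read here as relative abundance.

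The 4 arrays fell into a lower and a higher pair for many of these genes. The lowest of the 4 values lay on an array filed as wild type for 55 of the 67 models (82.1%), compared with 50.7% of all genes. Wild type 1 was the lowest array for 31 models, the array filed as wild type 2 for 24, the array filed as TEKi 1 for 12 and TEKi 2 for 0. The range over the 4 arrays had a median of 0.32 on the log2 scale, and it exceeded 2-fold for 7 models: ycf1 (ATCG01130), ycf3, psbA, ccsA, rps14, ndhB and rps15.

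**Figure D1:**
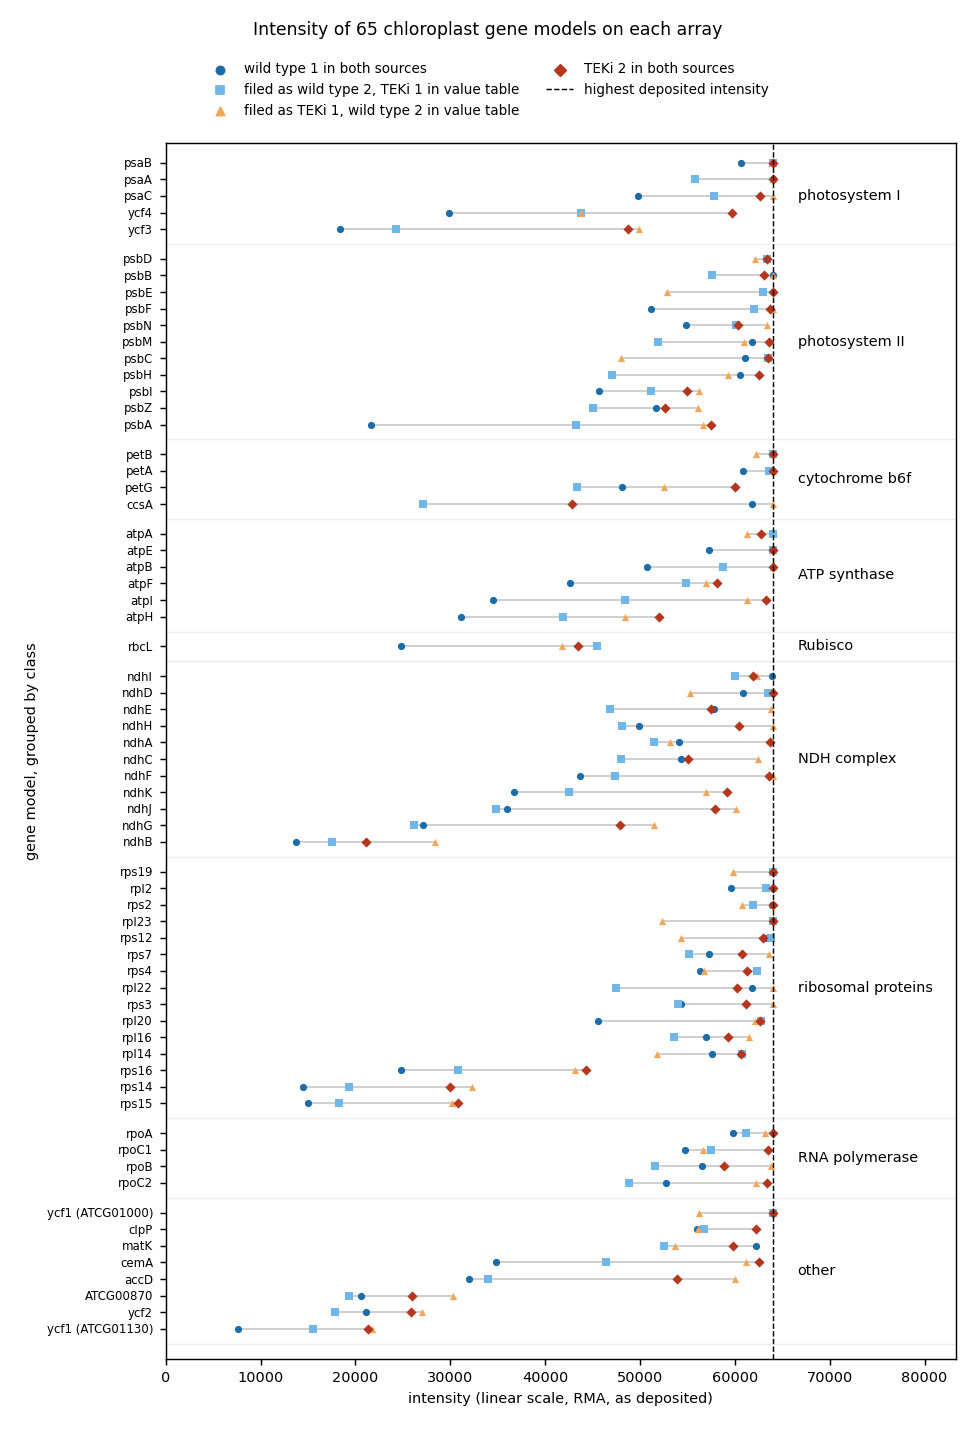
Deposited intensity (linear scale, horizontal axis) of 65 chloroplast gene models, grouped by class and ordered by mean intensity within a class. Each point is 1 array, the grey line joins the lowest and the highest, and the dashed line marks the ceiling of 64046.8. Bright models crowd against the ceiling, whereas psbA, ycf3, rps14, rps15, accD and ndhG have both arrays filed as TEKi to the right of both filed as wild type.

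With the array-file labels, chloroplast transcripts were mostly higher in TEKi, and no single gene passed the test. The median log2 difference (TEKi minus wild type) of the 67 models was 0.18, against 0.01 for all genes and 0.00 for the 10214 genes within their range of mean level, and 53 models lay above 0 (79.1%, against 50.8% of all genes). Without the array filed as wild type 2 the median was 0.12. Both TEKi arrays lay above both wild-type arrays for 35 of 67 models (52.2%), where 15.3% of all genes and 16% of the genes in that range did so. Both lay below for 2 models, atpA and rps12 (14.7% of all genes). By limma with Benjamini-Hochberg adjustment over all 30352 genes, 0 of 67 chloroplast models and 0% of all genes, in the range of level too, had an adjusted p under 0.05. At an unadjusted p under 0.05 there were 8 models, all higher in TEKi (ycf3, ndhG, ndhJ, rps15, accD, rps14, rps16 and ndhK), against a background of 2.37% of all genes in that direction and 0.597% of those in the same range of level, and 0 models were lower (2.24% of all genes). With a plain per-gene variance 10 models, all higher in TEKi, had an unadjusted p under 0.05, against 4.53% of all genes.

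With the value-table labels the median lay near that of genes of similar level. The median log2 difference was 0.043, against 0.045 for the genes within the range of level and 0.090 for all genes, and 43 of 67 models lay above 0, against 60.3% of all genes. Both arrays labelled TEKi lay above both labelled wild type for 10 models (14.9%, against 27.7% of all genes and 24.9% of those in the range of level) and below for 5 (7.46%, against 17.1% and 16%). By limma, 0 of 67 models had an adjusted p under 0.05, where 2.22% of all genes and 0.294% of those in the range of level did, and the smallest adjusted p was 0.333, for ccsA. At an unadjusted p under 0.05 there was 1 model, ccsA, lower in TEKi (6.94% of all genes), and 0 higher (7.5%). A plain per-gene variance gave 1 other model, rps4, against 11.4% of all genes. Since n was 2 arrays in each group, these counts describe the 4 arrays and a p that misses the threshold does not show that a gene was unchanged.

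**Figure D2:**
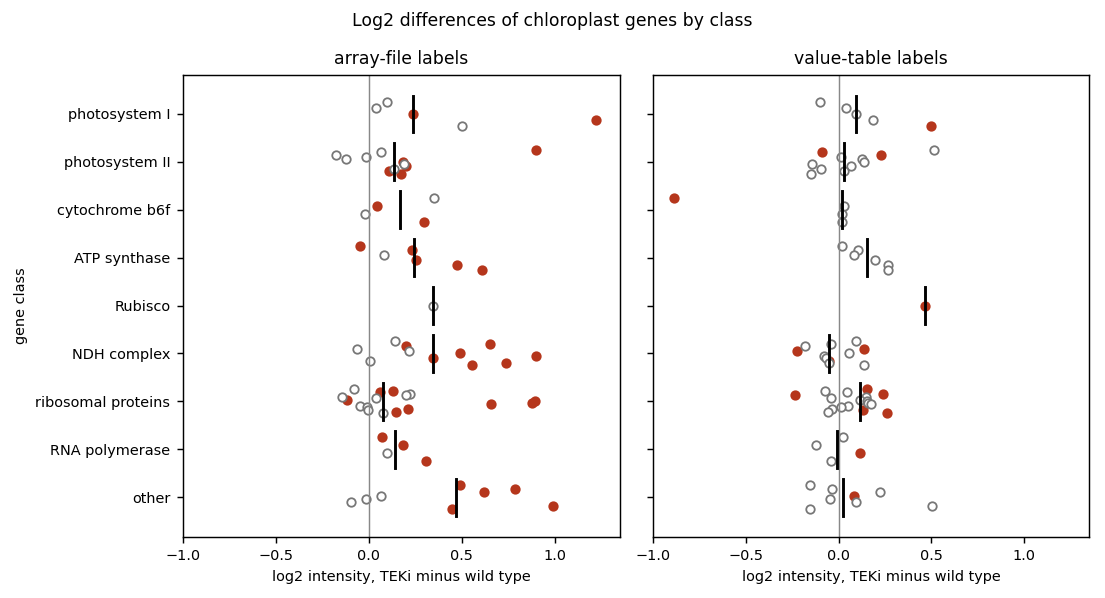
Log2 difference in intensity, TEKi minus wild type, of each chloroplast gene model by class, with the array-file labels on the left and the value-table labels on the right. Filled points are models whose 2 groups of arrays do not overlap, open points overlap, and the black bars are class medians. With the array-file labels every class median lies above 0, from 0.07 for ribosomal proteins to 0.47 for other proteins, and with the value-table labels class medians other than that of Rubisco lie between -0.05 and 0.15.

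Photosystem I passes electrons to ferredoxin and is built around PsaA and PsaB. psaA (ATCG00350, chromosome C, 39605 to 41857, genome release 6) had intensities of 64047, 55792, 64047 and 64047, at the ceiling on 3 arrays. psaB, the partner of PsaA in the reaction centre, had 60675, 64047, 64047 and 64047. Neither gene separated the groups under either set of labels. The widest change of all chloroplast models with the array-file labels was that of ycf3 (ATCG00360, 42584 to 43751), which encodes a photosystem I assembly factor and read 18417, 24290, 49864 and 48746. Both arrays filed as TEKi were above both filed as wild type, a 2.33-fold difference (log2 difference 1.22, SE 0.225, limma adjusted p = 1, unadjusted p = 0.00956). The value-table groups overlapped (0.18, SE 0.679). The other assembly factor, ycf4, read 29873, 43806, 43792 and 59730, and separated the groups with the value-table labels only (log2 difference 0.50, SE 0.308, adjusted p = 0.592). The 2 exchanged arrays read nearly alike for ycf4, so the size of its difference hardly depended on the labels. psaC, the iron-sulfur subunit, read 49838, 57814, 64047 and 62660 and was higher on both arrays filed as TEKi.

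Photosystem II splits water, and its D1 protein, the product of psbA, is replaced continually in the light. psbA (ATCG00020, 383 to 1444) read 21592, 43239, 56629 and 57506. The low value of wild type 1 made its range 2.66-fold, and the other 3 arrays lay closer together. The log2 difference was 0.90 (SE 0.423, adjusted p = 1) with the array-file labels, where the groups did not overlap, and 0.51 (SE 0.568, adjusted p = 0.779) with the value-table labels, where they did. The array-file difference was 0.40 without wild type 1 and 1.40 without the array filed as wild type 2. psbD (ATCG00270, 32711 to 33772), which encodes the D2 partner of D1, read 63357, 63357, 62155 and 63357, the narrowest range of the 67. psbC, which encodes the CP43 antenna protein, had its lowest value on the array filed as TEKi 1 (61103, 63442, 47951 and 63442), and psbE, a subunit of cytochrome b559, did as well (64047, 62916, 52879 and 64047). Of the 11 photosystem II genes, 5 were higher on both arrays filed as TEKi (psbA, psbF, psbI, psbN and psbZ; 15.3% of all genes) and 0 lower (14.7%), with a class median of 0.14. By the value-table labels 1 was higher (psbC; 27.7% of all genes) and 1 lower (psbB, the CP47 antenna gene; 17.1%), with a median of 0.03.

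The cytochrome b6f complex links the photosystems, and ATP synthase uses the proton gradient they build. petB, for cytochrome b6, read 64047, 64047, 62280 and 64047 and could show little because of the ceiling. ccsA, needed to attach heme to c-type cytochromes (ATCG01040, 114461 to 115447), had a pattern of its own. It read 61821, 27173, 64047 and 42796, high on wild type 1 and the array filed as TEKi 1 and low on the others. By the value table it was therefore 1.85-fold lower in TEKi (log2 difference -0.88, SE 0.291, unadjusted p = 0.0456, adjusted p = 0.333), while with the array-file labels the groups overlapped (0.35, SE 0.54).

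Of the 6 ATP synthase genes, those for the catalytic head (atpA, atpB and atpE) reached the ceiling on at least 2 arrays each, so the size of their differences cannot be set against that of the membrane-sector genes. atpI, for a membrane subunit, read 34503, 48449, 61309 and 63246 (log2 difference 0.61, SE 0.251, adjusted p = 1). atpH, for the rotating ring subunit, read 31175, 41901, 48439 and 52020 (0.47, SE 0.235), and atpF had 0.25. Each of these was higher on both arrays filed as TEKi, and without wild type 1 the differences of atpI and atpH were 0.36 and 0.26. atpB, for the catalytic beta subunit, was at the ceiling on both arrays filed as TEKi and at 50690 and 58794 on the others, at least 1.17-fold higher in TEKi. atpA, for the alpha subunit, was at the ceiling on both arrays filed as wild type and at 61230 and 62743 on those filed as TEKi, at least 1.03-fold lower in TEKi. Of the 6 genes, 4 were thus higher on both arrays filed as TEKi (66.7%, against 15.3% of all genes) and 1 lower (16.7%, against 14.7%). For all 6 genes the groups of the value table overlapped.

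Rubisco fixes carbon dioxide, and its large subunit comes from rbcL (ATCG00490, 54958 to 56397). rbcL read 24836, 45431, 41792 and 43506, so that wild type 1 stood below 3 similar arrays. The log2 difference was 0.34 (SE 0.377, adjusted p = 1) with the array-file labels, and the groups overlapped. Without wild type 1 it was -0.092, so its direction rests on that array. By the value table it was 0.46 (SE 0.322, adjusted p = 0.637), and both arrays labelled TEKi were higher.

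The NDH complex carries electrons around photosystem I and is related to respiratory complex I. With the array-file labels 7 of its 11 genes were higher on both TEKi arrays (15.3% of all genes) and 0 lower (14.7%), with a median of 0.34, and 0 passed the adjusted test. ndhG (ATCG01080, 118377 to 118907) read 27113, 26166, 51476 and 47867, a 1.86-fold difference (log2 difference 0.90, SE 0.168, adjusted p = 1, unadjusted p = 0.01). ndhJ (ATCG00420, 48677 to 49153) read 35935, 34819, 60148 and 57950 (0.74, SE 0.164). For both genes the 2 arrays of each filed group were close together and the groups far apart. ndhB, which lies in the inverted repeat and has 1 model for both copies, read 13771, 17558, 28356 and 21086 (0.65, SE 0.269). ndhK, described in the deposited annotation as a photosystem II protein but identical in position to RefSeq's ndhK, differed by 0.56, ndhF by 0.49 and ndhH by 0.34. At the other end ndhI read 63917, 59970, 62372 and 61886 and ndhD 60825, 63499, 55234 and 64047, and their groups overlapped. Under the value-table labels the class median was -0.05, with 1 gene higher (ndhD; 27.7% of all genes) and 2 lower (ndhI and ndhE; 17.1%).

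The chloroplast's ribosome is of the bacterial kind, and 17 of its protein genes were on the array. Most were near the ceiling and differed little: rps2, for example, read 63967, 61911, 60796 and 64047. The 3 dimmest genes stood apart from the rest. rps15 (ATCG01120, 123296 to 123562) read 15022, 18293, 30131 and 30857 (log2 difference 0.88, SE 0.196, adjusted p = 1). rps14 (ATCG00330, 36938 to 37240) read 14481, 19276, 32319 and 29942 (0.90, SE 0.232), and rps16 read 24809, 30856, 43111 and 44259 (0.66). In each of the 3 both arrays filed as TEKi were above both filed as wild type. Among all 17 genes 7 were higher (41.2%, against 15.3% of all genes) and 1 lower (5.88%, against 14.7%) in this way, with a median of 0.07. The value table put 4 higher (23.5%, against 27.7% of all genes) and 1 lower (5.88%, against 17.1%), rpl22 (-0.23, SE 0.2, adjusted p = 0.711), with a median of 0.11.

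The genes of the bacterial-type polymerase core differed modestly. rpoB (ATCG00190, 23111 to 26329), for the beta subunit, read 56499, 51592, 63773 and 58812 (log2 difference 0.18, SE 0.175, adjusted p = 1), and rpoC2 read 52770, 48822, 62250 and 63368 (0.31, SE 0.168). rpoA read 59782, 61159, 63226 and 64047. These 3 were higher on both arrays filed as TEKi (75%, against 15.3% of all genes), and rpoC1 overlapped. In the value-table groups rpoC1 was higher (0.12) and the others overlapped, that is 25% higher, against 27.7% of all genes.

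The 8 models of other proteins had the highest class median with the array-file labels, 0.47. accD (ATCG00500, 57075 to 58541), for a subunit of the acetyl-CoA carboxylase that starts fatty acid synthesis, read 31963, 34007, 60018 and 53878, a 1.73-fold difference (log2 difference 0.79, SE 0.176, adjusted p = 1). ycf1 has 2 models, a long one and a short one at the edge of the inverted repeat. The long one (ATCG01130, 123884 to 129244) read 7573, 15543, 21787 and 21308, with the widest range of the 67 (2.88-fold; log2 difference 0.99, SE 0.436). The difference was 0.47 without wild type 1 and 1.51 without the array filed as wild type 2. The short one (ATCG01000) was at the ceiling on 3 arrays and read 56186 on the array filed as TEKi 1. ycf2, for a large membrane-associated protein, read 21063, 17854, 27034 and 25815 (0.45, SE 0.188). cemA, for an envelope membrane protein, differed by 0.62 and the unnamed model ATCG00870 by 0.49, both higher on the arrays filed as TEKi. clpP, for the proteolytic subunit of the Clp protease, read 55971, 56779, 56090 and 62263, and matK overlapped as well. Of these 8 models only clpP separated the value-table groups (0.09, higher in TEKi), which is 12.5%, against 27.7% of all genes.

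**Figure D3:**
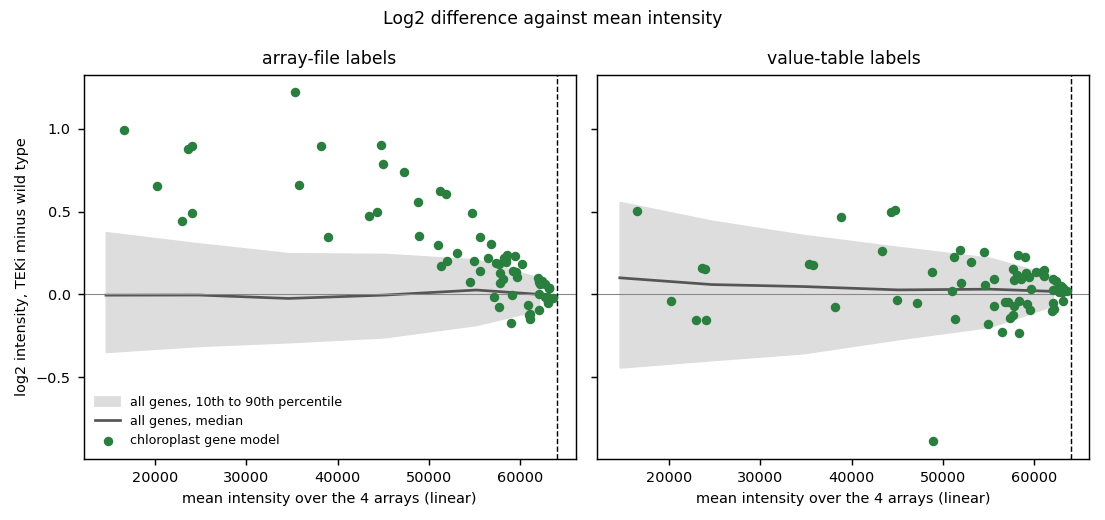
Log2 difference, TEKi minus wild type, against mean intensity over the 4 arrays (linear scale), with the array-file labels on the left and the value-table labels on the right. Green points are the 67 chloroplast models, the grey band spans the 10th to the 90th percentile of all genes in bins of mean intensity, the grey line is their median, and the dashed line is the ceiling. On the left the 17 chloroplast models with a mean intensity under 50000 lie above the band, and toward the ceiling both the points and the band narrow to 0.

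Models of lower mean level had the larger differences with the array-file labels. Mean level and difference come from the same intensities and are not independent, so the split only describes the models. Near the ceiling a difference can only be small, and a wide gap between arrays itself lowers the mean. The 33 chloroplast models of lower mean level had a median log2 difference of 0.47 with the array-file labels, and 25 (75.8%) were higher on both arrays filed as TEKi and 0 lower. The 8916 genes in the same range of level had a median of 0.00, with 15.5% higher and 16.3% lower. The 34 models of higher level had a median of 0.05, with 10 higher (29.4%) and 2 lower (5.88%), and the 1298 genes in that range had 0.02, with 19.5% higher and 10.5% lower. Among the 44 models that stayed below the ceiling on every array the median was 0.22. Under the value-table labels the lower and upper parts had medians of 0.05 and 0.04.

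Genes of the same operon are given side by side with the array-file labels unless stated, and the ceiling limits some of them. In the ndhC operon all 3 genes were higher on both arrays filed as TEKi (15.3% of all genes). The log2 differences ran from 0.20 for ndhC to 0.74 for ndhJ. By the value table the groups of all 3 overlapped, with a median of -0.05. In the rps2-atpA operon the differences were 0.61 for atpI, 0.47 for atpH and 0.25 for atpF, whereas rps2 and atpA, which reached the ceiling on 1 and 2 arrays, give no measure of size. In the psaA operon rps14 differed by 0.90 while psaA and psaB, at the ceiling on 3 arrays each, differed by 0.10 and 0.04. The psbD operon, with psbC and psbD on plateaus, had a median of -0.01 and the rpl23 operon, with 10 genes on the array, one of 0.07. By the value table the medians were 0.20 for the rps2-atpA operon, 0.04 for the psaA operon, 0.01 for the psbD operon and 0.03 for the rpl23 operon. Operon membership was taken from general knowledge of the chloroplast genome.

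**Figure D4:**
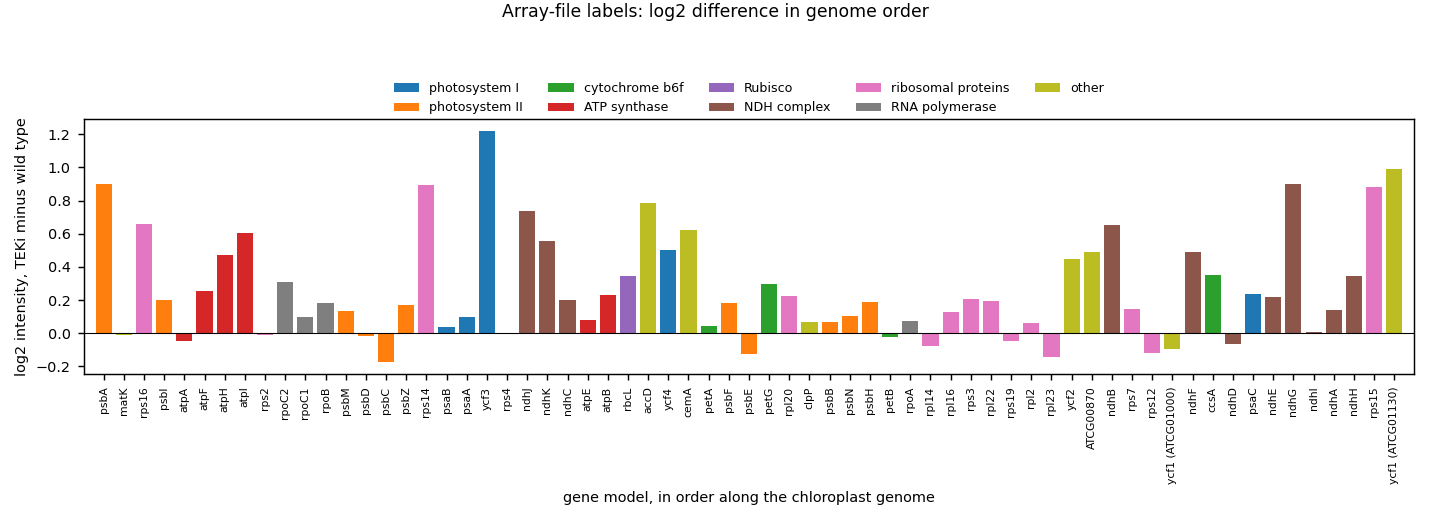
Log2 difference, TEKi minus wild type, with the array-file labels, for 65 chloroplast gene models in the order of their start positions. Each bar is 1 model and colours mark gene classes. The tallest bars, ycf3 at 1.22 and ycf1 (ATCG01130) at 0.99, stand beside rps4 near 0 and rps15 at 0.88, and 51 of the 65 bars are above 0.

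Grouped by the polymerase mainly held to read them, 9 genes of the bacterial-type enzyme (psbA, psbB, psbC, psbD, psbE, psaA, psaB, petB and rbcL) had a median log2 difference of 0.04 with the array-file labels. Of these, 1, psbA, separated the groups, higher in TEKi (11.1%, against 15.3% of all genes). The 8 models assigned to the nuclear-encoded enzymes (accD, clpP, rpoB, rpoC1, rpoC2, ycf2 and both of ycf1) had a median of 0.24, and 5 were higher in TEKi (15.3% of all genes). The 2 groups differed in level as well, with median intensities on wild type 1 of 63357 and 53760, and the part of the ceiling in this contrast was not tested. The value table gave medians of 0.04 and 0.03.

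Nuclear genes for the same complexes, for light harvesting and for chloroplast transcription, and the phage-type polymerases as a family, were compared in the same way. Of 77 listed partner genes 76 were measured, RPOTMP having no match by name. By the array files their median log2 difference was 0.02. On both arrays filed as TEKi 18 were higher (23.7%, against 15.3% of all genes) and 6 lower (7.89%, against 14.7%). By the value table the median was 0.04, with 20 higher (26.3%, against 27.7% of all genes) and 5 lower (6.58%, against 17.1%). By limma 0 of the 76 had an adjusted p under 0.05 under either set of labels. At an unadjusted p under 0.05 there were 0 with the array-file labels (4.61% of all genes). With the value-table labels there were 2 (14.4% of all genes), the dim LHCB1.1, higher in TEKi, and RPOTM, lower. Of the 6 sigma factors, which direct the bacterial-type polymerase to promoters, 0 were higher with the array-file labels (15.3% of all genes). Only SIG6 was lower (16.7%, against 14.7% of all genes). With the value-table labels SIG3 and SIG5 were higher (33.3%, against 27.7% of all genes) and SIG1 was lower (16.7%, against 17.1%). SIG5, which responds to light and stress, read 35269, 40705, 20604 and 37756. The 13 proteins associated with the polymerase had a median of 0.00 as filed, with 1 higher (PTAC10; 15.3% of all genes) and 1 lower (FSD3; 14.7%). The value table put 1 higher (TRX z; 27.7% of all genes) and 1 lower (PTAC2; 17.1%). RPOTP, a phage-type polymerase of the chloroplast, read 20030, 29154, 19284 and 21416. Its groups overlapped with the array-file labels, and with the value-table labels both TEKi arrays were higher (log2 difference 0.35, SE 0.227).

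**Figure D5:**
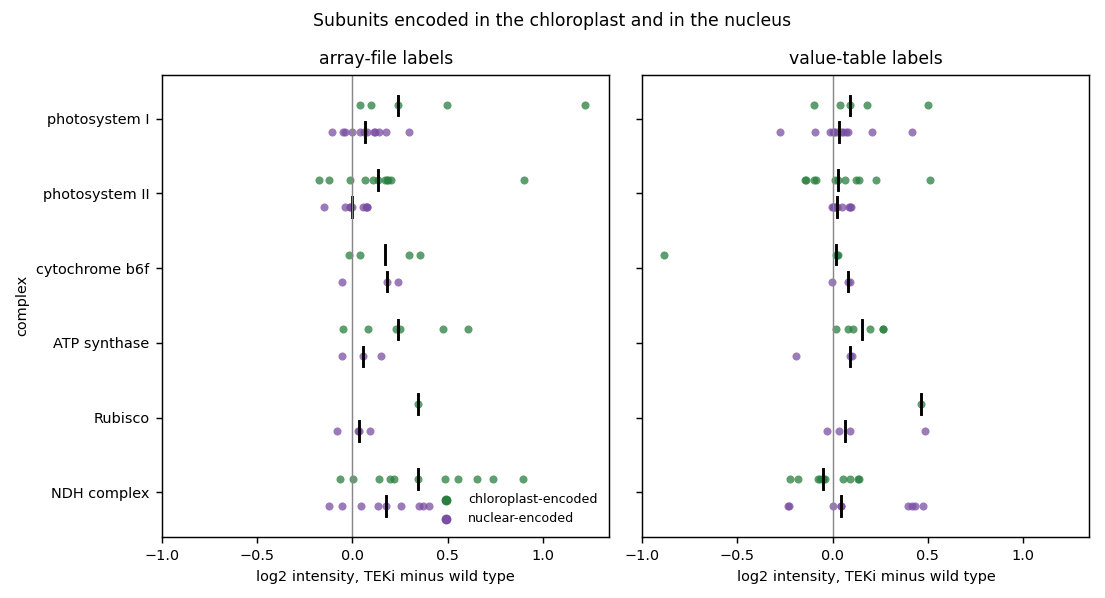
Log2 difference, TEKi minus wild type, of chloroplast-encoded (green) and nuclear-encoded (purple) genes of the same complexes, with the array-file labels on the left and the value-table labels on the right. Each point is a gene and black bars are medians. With the array-file labels the chloroplast-encoded NDH genes have a median of 0.34 and the nuclear-encoded ones 0.18, and with the value-table labels they have -0.05 and 0.05.

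Within complexes and with the array-file labels, the 12 nuclear photosystem I genes had a median of 0.07. Of these, 7 were higher (58.3%, against 15.3% of all genes) and 1 lower (8.33%, against 14.7%). The 7 included PSAL (0.04) and PSAD1 (0.11), at the ceiling on both arrays filed as TEKi. The 9 genes of photosystem II had a median of 0.00, the 3 of ATP synthase 0.06 and the 4 Rubisco small subunit genes 0.03. With the value-table labels 2 of the 12 photosystem I genes were higher (16.7%, against 27.7% of all genes) and 0 lower (17.1%), with a median of 0.03. The medians of the other lists, in the same order, were 0.02, 0.09 and 0.06. The 9 nuclear NDH genes had a median of 0.18 with the array-file labels. Of these, 2 were higher (NDHS and NDHN, 22.2%, against 15.3% of all genes) and 1 lower (NDHM, 11.1%, against 14.7%). Under the value-table labels 4 of these 9 were higher (44.4%, against 27.7% of all genes) and 1 lower (NDHO; 11.1%, against 17.1%). Among the 4 was PNSB3, which read 29828, 55299, 50857 and 52867. Light-harvesting genes, 15 in number, had a median of 0.00 with the array-file labels and 0.02 with the value-table labels. LHCA2 and LHCA3 were at the ceiling on all 4 arrays. Whether chloroplast and nuclear genes differed from each other was not tested.

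The 94 genes of the mitochondrial genome, the other organelle genome of the plant, were dimmer, with medians of 4869, 4177, 5072 and 4428. With the array-file labels 35 of them (37.2%) were higher on both arrays filed as TEKi (15.3% of all genes) and 17 (18.1%) lower (14.7% of all genes), with a median log2 difference of 0.09. The value-table labels gave 8 higher (8.51%, against 27.7% of all genes) and 21 lower (22.3%, against 17.1%), and a median of -0.05. By limma 0 of the 94 had an adjusted p under 0.05 as filed (0% of all genes) and 3 by the value table (2.22% of all genes). At an unadjusted p under 0.05, 17 were higher as filed (2.37% of all genes) and 2 lower (2.24%). The value table gave 0 higher (7.5% of all genes) and 7 lower (6.94%) at that threshold. Taken over genes, which do not count as independent replicates, Pearson's r was 0.932 and 0.962 between the arrays that the value table pairs and 0.821 and 0.844 between those the array files pair. For the chloroplast genes the corresponding values were 0.832 and 0.915 against 0.881 and 0.909, so neither labelling paired them better throughout, whereas all genes gave 0.972 and 0.974 against 0.934 and 0.930.

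The material was green seedling tissue by its markers: RBCS1A read between 57797 and 64047, although LHCB1.1 read 636 or less, and the summed intensity of the 6 green-tissue markers was 305496, 313269, 279964 and 319279. In whole seedlings, fewer green cells and less chloroplast RNA per cell cannot be told apart. The 10 root markers summed to 112162, 126488, 158043 and 146242, higher on both arrays filed as TEKi, and 3 of the 10 (PHT1;1, COBL9 and IRT1) separated the groups in that direction (15.3% of all genes) with 0 in the other. By the value-table labels 4 of the 10 were higher (SCR, PLT2, SMB and NRT2.1; 27.7% of all genes) and 0 lower. The iron transporter gene IRT1 read 12725, 25160, 44310 and 31770. The 4 seed markers summed to 30981, 3443, 27690 and 9264, a sum carried by CRA1 and OLEO1, which were high on the pair called wild type in the value table. With those labels CRA1, OLEO1 and SESA1 were lower in TEKi (75%, against 17.1% of all genes) and 0 higher (27.7%). The log2 difference of CRA1 was then -3.90 (SE 0.377, limma adjusted p = 0.0464). With the array-file labels the CRA1 groups overlapped (0.40, SE 2.17). Only CRB was then lower (25%, against 14.7% of all genes) and 0 were higher (15.3%). SESA1 read 1092, 351, 398 and 342, and CRB stayed at 143 or less on all arrays. None of these markers was at 0 on every array, and their part in the chloroplast values was not tested.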

How the data were processed

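RNA of 4 seedling samples was measured on NimbleGen arrays. The authors deposited 1 RMA intensity per gene model and array on a linear scale, per the file headers and the submitters' processing notes. The sources used here do not give the version or settings of RMA. Each chloroplast model rests on 2 probe pairs (54 models) or 3 (13), per the file headers. No detection flags were used, a deposited error column of unstated scale was left out, and the number of arrays limits the precision.

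Intensities were converted to log2 without a pseudocount. Leaving out 9 models that read exactly 0 somewhere, none of them from the chloroplast, gave 30352 genes. TEKi and wild type were compared by limma 3.58.1 (lmFit and eBayes, two-sided) in R 4.3.3, fitted and Benjamini-Hochberg adjusted over all genes, with 0.05 as the threshold. SE is limma's moderated standard error. The procedure was tested on simulated data.

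Positions are those of the deposited annotation (genome release 6). Symbols came from a RefSeq table of assembly TAIR10.1, through an identical start and end (61 models) or start (4), and from the deposited description for rps12; ATCG00870 is unnamed. Of the ribosomal protein models 2 are counted but not reported here by name. The 7 models rps7, rps12, rpl2, rpl23, ycf2, ndhB and ATCG00870 each stand for 2 loci of the inverted repeat.

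Values are printed for rbcL, psbA, psaA, psbD, accD, clpP, rpoB, ycf2 and ndhB, for the widest, narrowest, brightest and dimmest model of each class, for the 6 smallest unadjusted p-values under each set of labels and for some of the widest nuclear partners. Models named beyond these were chosen after their values were seen. The members, lists and comparisons were chosen with earlier results of these data known. The alternatives were a repeated quantile normalization, centring on nuclear or all genes, leaving out the dimmest 25% of genes or those at the ceiling, a pseudocount of 50, other variance models, an adjusted p of 0.01, a replicate block and leaving out each array.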

Additional observations from a re-analysis of the deposited data

How the results depend on the processing

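No chloroplast model had an adjusted p under 0.05 by limma under any alternative tried, with either set of labels; the smallest was 0.125 across settings and 0.33 without single arrays. With the array-file labels the median log2 difference was 0.15 after centring on the median of nuclear genes, 0.15 after centring on that of all genes and 0.22 without genes at the ceiling, and it lay between 0.12 and 0.20 when single arrays were left out. The count of 35 models with both TEKi arrays above both wild-type arrays, kept as an alternative measure after seeing the data, was 30 to 35 of 67 under the settings that keep all models, 27 of 44 without genes at the ceiling, and 38 to 46 without single arrays, where 1 array on a side makes separation easier. With the value-table labels the median log2 difference of the chloroplast genes ranged from -0.074 without wild type 1 to 0.12 without TEKi 1, and was -0.0075 without TEKi 2. The corresponding count of 10 ran from 11 to 34, being 19 without wild type 1, 34 without wild type 2 and 25 without TEKi 1. Single genes turned direction as well when 1 array was left out. With the array-file labels, the log2 difference of rbcL ranged from -0.092 (without wild type 1) to 0.78. With the value-table labels, psbA ranged from -0.18 (without wild type 1) to 1.21 and accD from -0.49 (without wild type 1) to 0.42 (without wild type 2), being 0.30 without TEKi 1. The cause of these changes was not tested. When single arrays were left out, 23 of 67 models changed sign with the array-file labels and 48 with the value-table labels, against 1 and 0 under the other settings.

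The samples share replicate numbers but came from separate cultures, and 2 pairs cannot show a pairing. The replicate numbers as filed split the arrays as the value-table groups do, and those of the value table as the array-file groups do. Replicate number under 1 set of labels and group under the other therefore cannot be told apart. Over all genes the deviations of the same-numbered arrays correlated at 0.65 with the array-file labels and 0.112 with the value-table labels. A fit with the replicate block called 0 chloroplast models and left the medians at 0.18 and 0.04. The ceiling limits what the brightest genes can show.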
